A study of Mus musculus with 23 samples.

Results

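The genes described here are 40 mouse genes of DNA replication and mitosis, picked by name, with earlier results of these data known. They comprise 20 genes of replication and of the step from G1 to S phase, and 20 genes of G2 phase and mitosis, out of 24062 genes with a row in the count tables. All 40 had a row. Of these, 33 held enough reads to be tested, 19 of the replication genes and 14 of the mitotic genes.

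RNA from the livers of 23 B6/129 mice was captured by its poly(A) tail and sequenced by Illumina. The mice were knockout (KO) or wild type (WT) for Ehhadh, which encodes the L-bifunctional protein of peroxisomal fatty acid oxidation, and received L-AC or saline. The labels spell L-AC out nowhere, and dose, route and duration are not given in the sources used here. As background, L-aminocarnitine, known by that abbreviation in work on fatty acid oxidation, inhibits the entry step of long-chain fatty acids into mitochondrial oxidation. The 4 groups were 5 KO mice on L-AC (28 to 38 weeks old), 6 WT mice on L-AC (28 to 44 weeks), 5 KO mice on saline (31 to 44 weeks) and 7 WT mice on saline (29 to 45 weeks). Both genotypes shared the B6/129 background, and no label tells how Ehhadh was inactivated or in which cells.

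Before a cell copies its DNA, the MCM helicase is loaded at origins by licensing factors such as Cdc6 and Cdt1 and is then fired with the GINS complex, while E2F transcription factors and cyclins D and E drive the cell from G1 into S phase. Mitosis is run by cyclins A and B with Cdk1, by Aurora and Polo kinases, by the spindle checkpoint, and by the anaphase-promoting complex, which marks cyclins and other proteins for destruction. Most hepatocytes of an adult liver rest outside the cycle and can enter it again after tissue loss. The inhibitor p21, made from Cdkn1a, blocks cyclin-dependent kinases and binds Pcna.

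Each library held 24521896 to 48095959 counted reads. Along the first principal component, with 60.35% of variance, the ordering separated all 11 L-AC libraries from all 12 saline libraries. WT L-AC replicate 3 lay nearest to saline among the L-AC libraries, and WT saline replicate 1 lay nearest to L-AC among the saline libraries. Ehhadh averaged 1658 ± 286 CPM in KO mice on L-AC, 13040 ± 1602 CPM in WT mice on L-AC, 141.6 ± 64.4 CPM in KO mice on saline and 954 ± 335 CPM in WT mice on saline (SD; CPM are counts scaled by library size). The labelled tissue fitted its markers, with 10 hepatocyte genes summing to 41510 to 67910 CPM in KO mice on L-AC, 54370 to 65850 CPM in WT mice on L-AC, 79460 to 91170 CPM in KO mice on saline and 73170 to 87810 CPM in WT mice on saline. 

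Levels of the 40 genes spanned a wide range, and the mitotic genes lay mostly at the low end. Per kilobase of exon, the mean over all 23 libraries was highest for Cdkn1a at 55.4 CPM per kb, followed by Pcna at 16.2, Tk1 at 9.01 and Mcm7 at 6.09 CPM per kb. Ccna2 had the highest mean level of the mitotic genes per kilobase, and Bub1 the lowest of all 40 at 0.00823 CPM per kb. In reads, the median library held 2087 for Cdkn1a, 719 for Pcna and 1 for Bub1. The 7 genes with too few reads to test were Cdc6, Ccnb1, Aurkb, Bub1, Cdc20, Cenpe and Tpx2, and none of them had more than 16 reads in any library. Their counts are too small to show a difference of a few-fold.

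**Figure D1:**
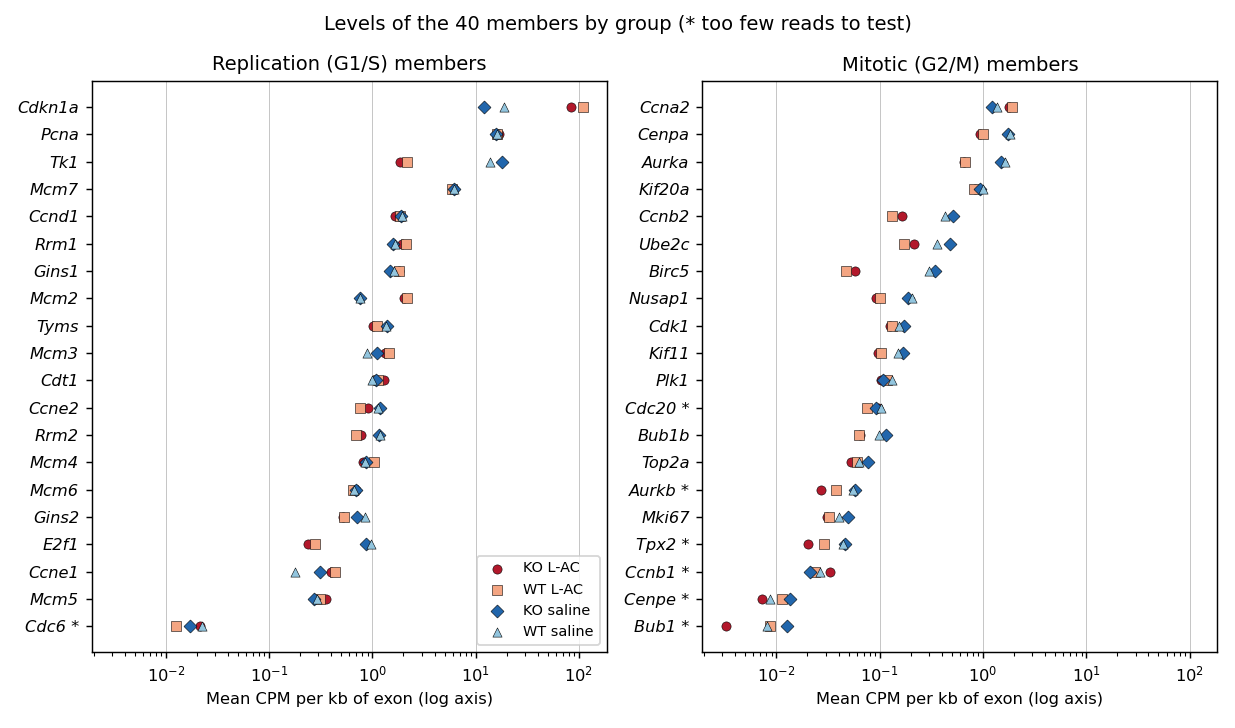
Mean level of each of the 40 genes in each of the 4 groups, as CPM per kb of exon on a log axis, with replication genes on the left and mitotic genes on the right. Cdkn1a, Tk1, E2f1, Birc5 and Ccnb2 show the L-AC groups (red circles, orange squares) well away from the saline groups (dark blue diamonds, light blue triangles), while for Pcna and Mcm7 all 4 groups lie together, near 16.2 and 6.09 CPM per kb.

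L-AC shifted a selection of these genes in both genotypes, some strongly. Tk1, Birc5 and E2f1 fell and Cdkn1a and Mcm2 rose, while Pcna and Mcm4 to Mcm7 passed no test. By edgeR's quasi-likelihood test with Benjamini-Hochberg adjustment over all genes (called at an adjusted p under 0.05), L-AC against saline gave 3 genes higher and 11 lower of the 33 tested in KO mice, and 6 higher and 11 lower in WT mice. L-AC altered much of the liver transcriptome: of all 14196 genes tested, 25.2% were called higher and 23.6% lower in KO mice, and 26.6% higher and 26.7% lower in WT mice. The share called among the 33 genes, 42.4% in KO mice and 51.5% in WT mice, was close to the share of all genes (48.8% in KO mice and 53.3% in WT mice). What follows therefore concerns which of the genes moved, in which direction and how far.

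Among the 33 tested genes, the 2 classes were not alike in direction. Wider lists, given below, did not show the same split in WT mice. Of the 14 mitotic genes tested, L-AC left 1 called higher and 7 lower in KO mice, and 1 higher and 6 lower in WT mice, and their median log2 fold change was -0.81 in KO mice and -0.62 in WT mice. The 19 replication genes split instead, with 2 higher and 4 lower in KO mice and 5 higher and 5 lower in WT mice. Their median was -0.01 in KO mice and -0.03 in WT mice. The genes called higher include Cdkn1a in each genotype, which encodes the inhibitor p21, so its rise is not a rise of the replication machinery. In KO mice Mcm2 was the only other replication gene called higher. Over all genes tested the median was -0.01 in each genotype. Fitted without a filter, so that all 20 genes of each class entered, the mitotic median was -0.87 in KO mice and -0.54 in WT mice, and the replication median 0.03 in KO mice and -0.02 in WT mice. In bulk liver, fewer cells of a type and less RNA per cell cannot be told apart.

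Groups whose libraries did not overlap at all were counted as well. L-AC and saline libraries of KO mice stood apart for 12 of the 33 genes, 4 higher and 8 lower, where 32.6% of all genes tested stood apart (17.1% higher and 15.5% lower). In WT mice they stood apart for 7 genes, 2 higher and 5 lower, where 24.1% of all genes stood apart (12.0% higher and 12.1% lower). The groups of WT mice are larger, which makes complete separation harder to reach.

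Called the same way in both genotypes were 3 genes higher (Mcm2, Cdkn1a and Ccna2) and 9 lower (Tk1, Ccne2, E2f1, Ccnb2, Birc5, Aurka, Cenpa, Nusap1 and Ube2c), where 42.3% of all genes tested were called the same way in both genotypes (21.7% higher and 20.6% lower). A further 5 genes passed the test in WT mice alone and 2 in KO mice alone, but no gene passed the test of the difference between genotypes (given below). The other 14 of the 33 genes passed in neither genotype.

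**Figure D2:**
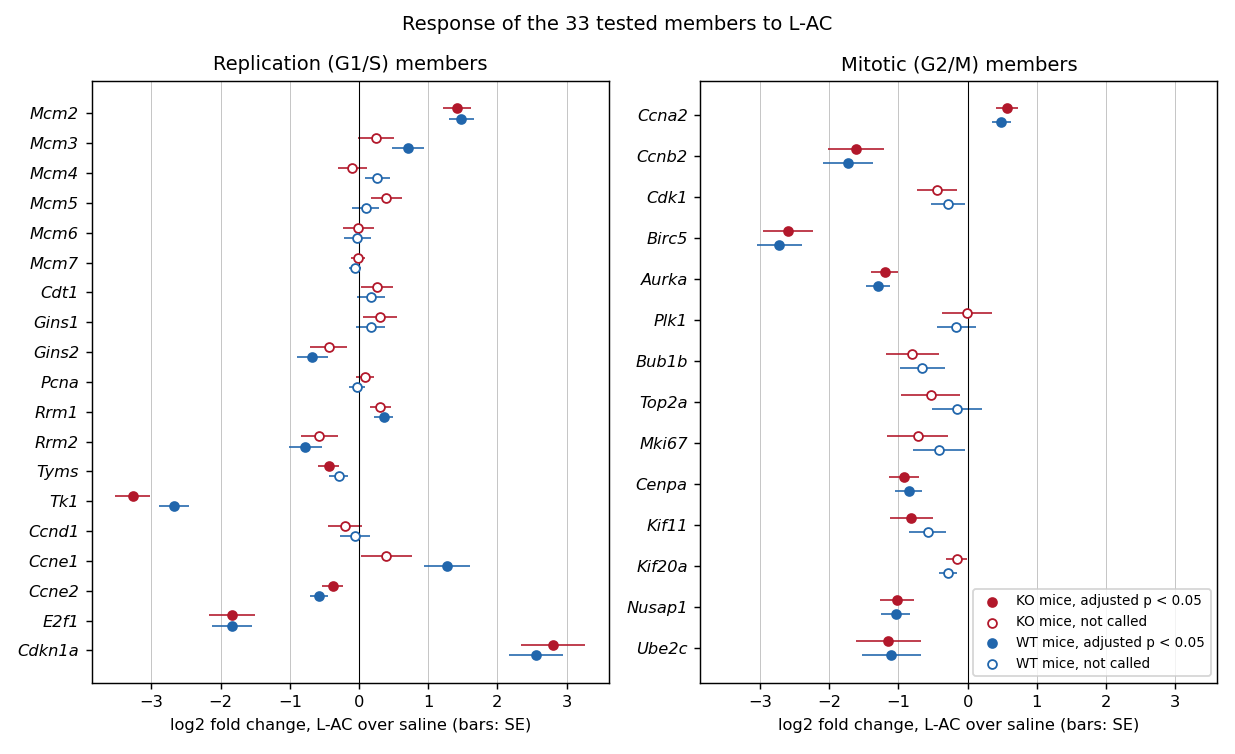
Log2 fold change of L-AC over saline for the 33 tested genes, with KO mice in red and WT mice in blue, bars showing the standard error and filled points an adjusted p under 0.05. The mitotic genes on the right lie almost wholly left of 0, from -2.72 for Birc5 in WT mice, with Ccna2 alone filled on the right; the replication genes on the left run from -3.27 for Tk1 in KO mice to 2.81 for Cdkn1a in KO mice.

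Among the 6 subunits of the MCM helicase, which unwinds DNA at the replication fork, Mcm2 rose in both genotypes. Mcm2 (mm10 chromosome 6, 88883474 to 88898780, minus strand) had 4.25, 6.04, 6.28, 8.60 and 9.23 CPM in KO mice on L-AC, against 2.08, 2.36, 2.47, 2.68 and 3.30 CPM in KO mice on saline. In WT mice its lowest, median and highest values were 5.05, 7.49 and 9.44 CPM on L-AC, against 1.89, 2.65 and 3.06 CPM on saline. Every L-AC library lay above every saline library. The log2 fold change was 1.42 (SE 0.208, 2.67-fold, adjusted p = 8.48e-06) in KO mice and 1.48 (SE 0.18, 2.79-fold, adjusted p = 5.85e-07) in WT mice by edgeR.

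Of the other MCM genes, which form a single ring with Mcm2, Mcm3 in WT mice was the 1 further call. Mcm3 averaged 3.82 ± 1.57 CPM in KO mice on L-AC, against 3.23 ± 0.457 CPM in KO mice on saline, and was not called (0.24, SE 0.259, adjusted p = 0.454). In WT mice Mcm3 averaged 4.19 ± 1.51 CPM on L-AC, against 2.55 ± 0.566 CPM on saline, and rose (0.71, SE 0.227, adjusted p = 0.0116), with overlapping groups. Mcm4, Mcm5, Mcm6 and Mcm7 were called in neither genotype. Their log2 fold changes ran from -0.10 (Mcm4) to 0.39 (Mcm5) in KO mice and from -0.06 (Mcm7) to 0.27 (Mcm4) in WT mice. Mcm7, with 329 to 785 reads in every library, averaged 14.7 ± 2.09 CPM in KO mice on L-AC, 14.1 ± 0.929 CPM in WT mice on L-AC, 14.9 ± 1.34 CPM in KO mice on saline and 14.7 ± 1.60 CPM in WT mice on saline, so its standard errors were small, at 0.1 in KO mice and 0.0879 in WT mice on the log2 scale.

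Licensing and origin firing showed little. Cdt1, which loads the MCM ring onto DNA, averaged 2.83 ± 0.755 CPM in KO mice on L-AC, against 2.35 ± 0.793 CPM in KO mice on saline, and 2.49 ± 0.456 CPM in WT mice on L-AC, against 2.19 ± 0.570 CPM in WT mice on saline, and was not called (adjusted p = 0.367 in KO mice and 0.478 in WT mice). Gins1, a GINS subunit, was not called either (0.30, SE 0.241 in KO mice and 0.17, SE 0.209 in WT mice). Gins2, a second subunit of the same complex, fell in WT mice (-0.68, SE 0.224, adjusted p = 0.0144), where it averaged 0.549 ± 0.177 CPM on L-AC, against 0.876 ± 0.194 CPM on saline. In KO mice Gins2 averaged 0.542 ± 0.177 CPM on L-AC, against 0.740 ± 0.163 CPM on saline, and was not called (-0.44, SE 0.263, adjusted p = 0.17). Cdc6, which works with Cdt1, had 1 to 7 reads per library.

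Pcna, the sliding clamp that holds DNA polymerase on its template, was among the steadiest genes. It averaged 21.1 ± 3.28 CPM in KO mice on L-AC, against 19.9 ± 3.08 CPM in KO mice on saline, and 20.1 ± 2.16 CPM in WT mice on L-AC, against 20.4 ± 3.52 CPM in WT mice on saline. The log2 fold change was 0.09 (SE 0.135) in KO mice and -0.03 (SE 0.118) in WT mice, within the spread of the libraries.

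Of the 4 genes that supply deoxynucleotides, Tk1 moved most, and more than any other replication gene. Tk1 encodes the thymidine kinase that salvages thymidine for DNA synthesis (chromosome 11, 117815519 to 117826014, minus strand). It had 1.67, 1.70, 2.57, 2.83 and 3.86 CPM in KO mice on L-AC, against 20.3, 20.4, 21.2, 23.3 and 37.6 CPM in KO mice on saline. Its lowest, median and highest values in WT mice were 1.84, 2.96 and 4.10 CPM on L-AC, against 13.7, 19.6 and 23.8 CPM on saline. The 2 ranges were far apart in each genotype, with no L-AC library above 4.10 CPM. Tk1 fell by 3.27 on the log2 scale in KO mice (SE 0.25, 9.67-fold lower, adjusted p = 1.25e-09) and fell by 2.67 in WT mice (SE 0.217, 6.37-fold lower, adjusted p = 1.75e-09). Tk1 shares 88 bases, 6.43% of its exons, with Afmid on the opposite strand, and the counting gave reads there to both genes. Afmid averaged 37.3 ± 8.36 CPM in KO mice on L-AC, against 161.4 ± 24.5 CPM in KO mice on saline, and 37.0 ± 12.1 CPM in WT mice on L-AC, against 131 ± 17.7 CPM in WT mice on saline. How far Afmid reads enter the Tk1 count was not tested.

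The other nucleotide genes changed less. Rrm1 and Rrm2 encode the large and the small subunit of ribonucleotide reductase, which turns ribonucleotides into deoxyribonucleotides, and they differed in direction in WT mice. Rrm1 averaged 8.41 ± 2.01 CPM in WT mice on L-AC, against 6.57 ± 0.573 CPM in WT mice on saline, and rose (0.36, SE 0.136, adjusted p = 0.0311), while Rrm2 averaged 1.51 ± 0.171 CPM on L-AC, against 2.58 ± 1.03 CPM on saline, and fell (-0.77, SE 0.234, adjusted p = 0.00795). In KO mice neither was called, with log2 fold changes of 0.31 (SE 0.156, adjusted p = 0.107) for Rrm1 and -0.58 (SE 0.266, adjusted p = 0.0767) for Rrm2. Tyms, thymidylate synthase, averaged 3.86 ± 0.887 CPM in KO mice on L-AC, against 5.23 ± 0.576 CPM in KO mice on saline, and fell there (-0.44, SE 0.156, adjusted p = 0.0232), but it was not called in WT mice (-0.29, SE 0.136, adjusted p = 0.0726).

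The G1/S regulators included genes that moved far in opposite directions. E2f1, a transcription factor that activates S-phase genes (chromosome 2, 154559400 to 154569892, minus strand), had 0.307, 0.621, 0.679, 0.751 and 1.36 CPM in KO mice on L-AC, against 2.21, 2.42, 2.76, 2.83 and 3.10 CPM in KO mice on saline. Its lowest, median and highest values in WT mice were 0.360, 0.749 and 1.78 CPM on L-AC, against 1.65, 3.19 and 3.88 CPM on saline. The KO groups did not overlap, and in WT mice the highest L-AC library, replicate 3, lay just above the lowest saline library. E2f1 fell by 1.84 on the log2 scale in KO mice (SE 0.333, 3.59-fold lower, adjusted p = 9.58e-05) and fell by 1.83 in WT mice (SE 0.289, 3.56-fold lower, adjusted p = 1.61e-05).

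Cdkn1a, which encodes the p21 inhibitor, rose most of the 33 genes (chromosome 17, 29090986 to 29100722, plus strand). Its levels were 107, 112, 116, 181 and 333 CPM in KO mice on L-AC, against 11.7, 12.6, 23.2, 25.4 and 48.7 CPM in KO mice on saline. WT mice had 181, 195 and 300.3 CPM as lowest, median and highest values on L-AC, against 10.5, 36.4 and 59.8 CPM on saline. All L-AC libraries lay above all saline libraries, although both groups of KO mice spread widely. The log2 fold change was 2.81 (SE 0.464, 6.99-fold, adjusted p = 3.53e-05) in KO mice and 2.56 (SE 0.395, 5.89-fold, adjusted p = 1.28e-05) in WT mice. Cdkn1a alone made up most of the summed level of the 20 replication genes under L-AC, with a mean of 170 CPM of a sum of 254.5 CPM in KO mice and 224 CPM of 309.5 CPM in WT mice.

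The cyclins of G1 and S phase did not move together. Ccnd1, cyclin D1, averaged 6.25 ± 1.60 CPM in KO mice on L-AC, against 7.19 ± 1.35 CPM in KO mice on saline, and 6.97 ± 2.63 CPM in WT mice on L-AC, against 7.28 ± 2.26 CPM in WT mice on saline, and was not called (adjusted p = 0.519 in KO mice and 0.836 in WT mice). Ccne1, cyclin E1, rose in WT mice to 0.847 ± 0.259 CPM on L-AC, against 0.346 ± 0.117 CPM on saline (1.27, SE 0.333, adjusted p = 0.00272). In KO mice Ccne1 averaged 0.785 ± 0.604 CPM on L-AC, against 0.607 ± 0.132 CPM on saline (0.39, SE 0.372, adjusted p = 0.397). Ccne2, cyclin E2, went the other way, with 2.92 ± 0.623 CPM in KO mice on L-AC, against 3.81 ± 0.765 CPM in KO mice on saline (-0.38, SE 0.154, adjusted p = 0.0435), and 2.44 ± 0.293 CPM in WT mice on L-AC, against 3.65 ± 0.301 CPM in WT mice on saline (-0.58, SE 0.136, adjusted p = 0.0011). Ccne2 shares 53.9% of its exon bases with Ints8 on the opposite strand, which also fell (-0.36 in KO mice and -0.30 in WT mice), so the count of Ccne2 is uncertain. The part of Ints8 reads in it was not tested.

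**Figure D3:**
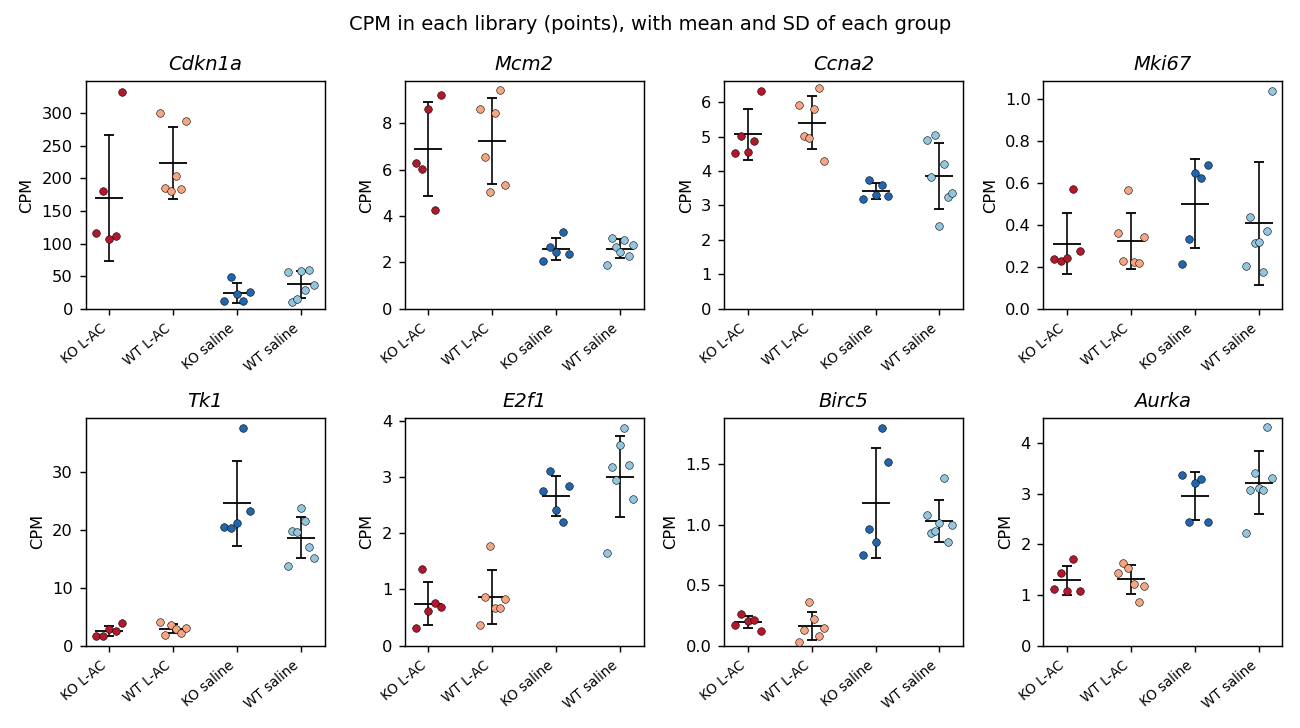
CPM of 8 genes in every library (points), with the mean (bar) and SD (whiskers) of each group; KO L-AC, WT L-AC, KO saline and WT saline run left to right in each panel and every axis starts at 0. Cdkn1a and Mcm2 show L-AC points above all saline points, Tk1, Birc5 and Aurka show them below all saline points, Ccna2 and E2f1 overlap in part in WT mice, and Mki67 overlaps throughout.

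Mitotic cyclins likewise split. Ccna2, cyclin A2, acts in S phase as well as at entry into mitosis and was the only mitotic gene called higher (chromosome 3, 36564865 to 36571996, minus strand). It had 4.54, 4.56, 4.86, 5.02 and 6.33 CPM in KO mice on L-AC, against 3.19, 3.28, 3.30, 3.60 and 3.73 CPM in KO mice on saline, which do not overlap. Its lowest, median and highest values in WT mice were 4.30, 5.40 and 6.41 CPM on L-AC, against 2.41, 3.83 and 5.05 CPM on saline, which do. Ccna2 rose by 0.57 on the log2 scale in KO mice (SE 0.164, adjusted p = 0.0067) and rose by 0.49 in WT mice (SE 0.142, adjusted p = 0.00633). It shares 13.5% of its exon bases with Exosc9 on the opposite strand, which averaged 17.6 ± 2.69 CPM in KO mice on L-AC, against 9.98 ± 0.961 CPM in KO mice on saline, and 18.4 ± 2.73 CPM in WT mice on L-AC, against 11.2 ± 1.55 CPM in WT mice on saline. The shared bases are 23.4% of the exon bases of Exosc9, so the count of Ccna2 and its rise are uncertain. The part of Exosc9 reads in the Ccna2 count was not tested.

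Ccnb2, a B-type cyclin that activates Cdk1 at mitosis (chromosome 9, 70407689 to 70421554, minus strand), fell in both genotypes. It had 0.102, 0.185, 0.242, 0.322 and 0.415 CPM in KO mice on L-AC, against 0.503, 0.572, 0.601, 0.701 and 1.54 CPM in KO mice on saline. In WT mice the lowest, median and highest values were 0.0830, 0.189 and 0.334 CPM on L-AC, against 0.270, 0.696 and 0.868 CPM on saline. Only WT mice overlapped, through a low saline library. Ccnb2 fell by 1.62 on the log2 scale in KO mice (SE 0.406, adjusted p = 0.00223) and fell by 1.73 in WT mice (SE 0.362, adjusted p = 0.000386), on 3 to 43 reads per library. Ccnb1, the other B-type cyclin, had 0 to 8 reads per library. Cdk1, the kinase that both serve, was not called (-0.44, SE 0.288, adjusted p = 0.213 in KO mice and -0.28, SE 0.248, adjusted p = 0.35 in WT mice).

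Of the kinase and checkpoint genes, Birc5 and Aurka fell, and Birc5 fell most of the 14 mitotic genes tested. It encodes survivin, a subunit of the chromosomal passenger complex that guides chromosome segregation (chromosome 11, 117849237 to 117855743, plus strand). Its values were 0.123, 0.171, 0.207, 0.214 and 0.264 CPM in KO mice on L-AC, against 0.752, 0.857, 0.965, 1.52 and 1.80 CPM in KO mice on saline. In WT mice they were 0.0277, 0.137 and 0.364 CPM (lowest, median and highest) on L-AC, against 0.860, 1.0 and 1.39 CPM on saline. Every L-AC library held less Birc5 than every saline library. Birc5 fell by 2.59 in KO mice (SE 0.361, 6.03-fold lower, adjusted p = 4.41e-06) and fell by 2.72 in WT mice (SE 0.325, 6.60-fold lower, adjusted p = 4.55e-07) on the log2 scale, with 1 to 71 reads per library.

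Aurka, the Aurora A kinase of centrosomes and spindle poles (chromosome 2, 172356190 to 172370570, minus strand), had 1.07, 1.08, 1.13, 1.44 and 1.72 CPM in KO mice on L-AC, against 2.43, 2.45, 3.22, 3.30 and 3.37 CPM in KO mice on saline. WT mice had 0.853, 1.33 and 1.63 CPM as lowest, median and highest values on L-AC, against 2.23, 3.10 and 4.33 CPM on saline. No L-AC library reached the lowest saline library. Aurka fell by 1.20 in KO mice (SE 0.193, adjusted p = 2.46e-05) and fell by 1.30 in WT mice (SE 0.169, adjusted p = 1.38e-06) on the log2 scale. Aurkb, the Aurora B kinase that works with survivin, had 0 to 11 reads per library, and Bub1, a spindle checkpoint kinase, 0 to 4. Plk1, the Polo kinase, averaged 0.229 ± 0.0548 CPM in KO mice on L-AC, against 0.235 ± 0.0668 CPM in KO mice on saline, and 0.258 ± 0.0817 CPM in WT mice on L-AC, against 0.288 ± 0.125 CPM in WT mice on saline, and was not called. Bub1b, which encodes the checkpoint protein BubR1, had log2 fold changes of -0.80 (SE 0.38, adjusted p = 0.0848) in KO mice and -0.65 (SE 0.328, adjusted p = 0.0978) in WT mice.

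Of the chromosome and kinetochore genes, Cenpa alone was called. Cenpa, the histone H3 variant that marks centromeres (chromosome 5, 30666902 to 30674826, plus strand), had 0.907, 1.05, 1.21, 1.23 and 1.86 CPM in KO mice on L-AC, against 1.84, 2.04, 2.15, 2.86 and 2.89 CPM in KO mice on saline. In WT mice its lowest, median and highest values were 1.03, 1.21 and 1.94 CPM on L-AC, against 1.82, 2.46 and 3.04 CPM on saline. A single high L-AC library overlapped the saline range in each genotype. Cenpa fell by 0.92 in KO mice (SE 0.217, adjusted p = 0.00139) and fell by 0.85 in WT mice (SE 0.189, adjusted p = 0.000646) on the log2 scale.

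Mki67, whose protein Ki-67 is the common stain for cycling cells, and Top2a, the topoisomerase that untangles sister chromosomes, had few reads. Mki67 had 0.227, 0.239, 0.242, 0.278 and 0.572 CPM in KO mice on L-AC, against 0.215, 0.336, 0.627, 0.649 and 0.687 CPM in KO mice on saline, and 0.220, 0.285 and 0.566 CPM (lowest, median and highest) in WT mice on L-AC, against 0.173, 0.319 and 1.04 CPM in WT mice on saline. The groups overlapped in both genotypes. Its log2 fold change of -0.72 (SE 0.439) in KO mice and -0.42 (SE 0.381) in WT mice was not called (adjusted p = 0.178 in KO mice and 0.369 in WT mice), and Top2a gave -0.54 (SE 0.424) in KO mice and -0.16 (SE 0.363) in WT mice. Mki67 had 6 to 50 reads per library, and its standard errors leave room for a fall as well as for no change.

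Spindle genes and the ubiquitin arm complete the class. Nusap1, which bundles spindle microtubules (chromosome 2, 119618298 to 119650160, plus strand), had 0.207, 0.214, 0.247, 0.273 and 0.415 CPM in KO mice on L-AC, against 0.501, 0.515, 0.519, 0.572 and 0.671 CPM in KO mice on saline. Its lowest, median and highest values in WT mice were 0.249, 0.295 and 0.362 CPM on L-AC, against 0.371, 0.673 and 0.781 CPM on saline. The L-AC libraries lay below the saline libraries in each genotype. Nusap1 fell by 1.02 in KO mice (SE 0.243, adjusted p = 0.00137) and fell by 1.04 in WT mice (SE 0.204, adjusted p = 0.00019) on the log2 scale. It shares 7.03% of its exon bases with Oip5, which was at or below 0.15 CPM on average in each group.

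Kif11, the kinesin that pushes spindle poles apart, averaged 0.462 ± 0.220 CPM in KO mice on L-AC, against 0.810 ± 0.296 CPM in KO mice on saline, and fell there (-0.82, SE 0.31, adjusted p = 0.0336). In WT mice it averaged 0.493 ± 0.0976 CPM on L-AC, against 0.731 ± 0.215 CPM on saline, and was not called (-0.58, SE 0.267, adjusted p = 0.0712). Kif20a, a kinesin of cell division, was not called, and 28.6% of its exon bases are shared with Cdc23. Ube2c, the ubiquitin-conjugating enzyme of the anaphase-promoting complex, averaged 0.200 ± 0.0430 CPM in KO mice on L-AC, against 0.447 ± 0.127 CPM in KO mice on saline, and 0.159 ± 0.0799 CPM in WT mice on L-AC, against 0.335 ± 0.206 CPM in WT mice on saline. It fell in both genotypes by edgeR (-1.15, SE 0.469, adjusted p = 0.0465 in KO mice and -1.10, SE 0.423, adjusted p = 0.0319 in WT mice) but by limma-voom in neither (adjusted p = 0.0985 in KO mice and 0.176 in WT mice), on 1 to 23 reads per library.

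Summed over the 20 mitotic genes, the lowest, median and highest libraries had 12.5, 13.8 and 15.9 CPM in KO mice on L-AC, against 17.6, 18.7 and 21.3 CPM in KO mice on saline. The corresponding sums were 12.9, 14.6 and 16.1 CPM in WT mice on L-AC, against 18.3, 19.5 and 20.4 CPM in WT mice on saline. No L-AC library reached the lowest saline library, even with Ccna2, whose count rose, in the sum. Most of the sum came from Kif20a, Ccna2, Aurka and Cenpa. In KO mice on saline they averaged 3.64, 3.42, 2.95 and 2.36 CPM of a mean sum of 18.9 CPM. In KO mice on L-AC they averaged 3.25, 5.06, 1.29 and 1.25 CPM of 14.1 CPM. The sum therefore reflects a few genes and does not show a fall across the class. Kif20a and Ccna2 also share exon bases with other genes. Markers of blood and tissue leukocytes, like hepatocyte markers (given below), were called lower more often than higher. Of 15 leukocyte markers tested, 2 were called higher and 7 lower in KO mice and 2 higher and 10 lower in WT mice. The share called was 60.0% in KO mice and 80.0% in WT mice, against 48.8% and 53.3% of all genes tested. Their median log2 fold change was -0.85 in KO mice and -0.84 in WT mice. The macrophage genes Clec4f, Cd5l and Lyz2 were the most abundant of them, with log2 fold changes of -0.56 (Clec4f, not called), -0.94 (Cd5l) and -1.11 (Lyz2) in KO mice and -0.82 (Clec4f), -1.03 (Cd5l) and -0.94 (Lyz2) in WT mice. Cd68 and Cd3e were the 2 that rose, named after their values were seen. The 18 leukocyte genes with a row summed to 52.5 to 166.2 CPM in KO mice on L-AC, against 106.9 to 183.2 CPM on saline. In WT mice they summed to 62.0 to 111.8 CPM on L-AC, against 80.7 to 253.8 CPM on saline. The median library held 84.6 CPM on L-AC against 127.9 CPM on saline in KO mice. In WT mice the medians were closer, at 80.9 CPM on L-AC against 93.4 CPM on saline. None of the 18 genes was at 0 in all libraries. Their part in the mitotic falls was not tested.

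The calls near the threshold depended on single libraries. Each of the 23 libraries was left out in turn and the fit repeated. Ube2c stayed called in 8 of 23 fits in KO mice (adjusted p 0.0183 to 0.0969) and in 17 of 23 in WT mice (0.00463 to 0.0758). In KO mice its call was lost without any of the 5 KO L-AC libraries, without KO saline replicate 2, 3, 4 or 5, without WT L-AC replicate 2, 4, 5 or 6, and without WT saline replicate 2 or 4. In WT mice the call ended without WT L-AC replicate 1, 4 or 6 and without WT saline replicate 1, 5 or 7. Ccne2 in KO mice stayed called in 15 of 23 fits (0.012 to 0.145) and was lost without KO L-AC replicate 1, 3, 4 or 5 or KO saline replicate 1, 2, 3 or 5. Kif11 in KO mice stayed called in 17 (0.0104 to 0.1) and was lost without KO L-AC replicate 1, 3 or 4 or KO saline replicate 1, 3 or 5. Rrm1 in WT mice stayed called in 18 (0.00587 to 0.12) and its call went with WT L-AC replicate 1 or 5 left out, or WT saline replicate 4, 6 or 7. Tyms in KO mice stayed called in 20 (0.0164 to 0.073) and was lost without KO L-AC replicate 5 or KO saline replicate 2 or 4. The other calls named above held in all 23 fits.

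Proximal promoters, 250 bases before to 50 bases after the start site, were listed by RefSeq (GRCm38.p6) for 31 of the 40 genes, 15 of replication and 16 of mitosis. They are shown for the letters that the mitotic genes share there. As background, the CHR element bound by the MuvB complexes and CCAAT boxes bound by NF-Y are features of G2/M gene promoters, and E2F sites of G1/S promoters. Because the genes were picked by name for these classes, the shares of such letters given below are not independent of that choice. Searched on both strands were CHR as TTTGAA or TTCGAA, the CCAAT box as CCAAT, and E2F as TTCCCGC, as TTGGCGC, as TTGCCGC or as TTCGCGC. The promoters of 4 mitotic genes that fell in both genotypes, of Mcm2, which rose, and of Rrm2, which fell in WT mice, are printed 5′ to 3′ on the strand of each gene, with matches in capitals. The promoter of Ccnb2 is chr9:70421505-70421804 (minus strand), that of Aurka chr2:172370521-172370820 (minus strand), that of Cenpa chr5:30666636-30666935 (plus strand), that of Ube2c chr2:164769679-164769978 (plus strand), that of Mcm2 chr6:88898731-88899030 (minus strand) and that of Rrm2 chr12:24708004-24708303 (plus strand).
Ccnb2: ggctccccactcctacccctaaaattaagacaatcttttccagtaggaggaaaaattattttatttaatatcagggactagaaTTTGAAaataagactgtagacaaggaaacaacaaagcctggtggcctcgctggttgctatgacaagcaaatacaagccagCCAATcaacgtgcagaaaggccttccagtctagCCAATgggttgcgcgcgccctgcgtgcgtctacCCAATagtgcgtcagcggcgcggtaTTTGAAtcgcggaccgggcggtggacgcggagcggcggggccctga
Aurka: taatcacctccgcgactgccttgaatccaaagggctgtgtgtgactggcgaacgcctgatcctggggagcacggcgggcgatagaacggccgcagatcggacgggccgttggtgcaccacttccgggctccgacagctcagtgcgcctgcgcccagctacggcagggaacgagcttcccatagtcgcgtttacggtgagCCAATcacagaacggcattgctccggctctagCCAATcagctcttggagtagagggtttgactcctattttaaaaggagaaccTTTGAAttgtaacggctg
Cenpa: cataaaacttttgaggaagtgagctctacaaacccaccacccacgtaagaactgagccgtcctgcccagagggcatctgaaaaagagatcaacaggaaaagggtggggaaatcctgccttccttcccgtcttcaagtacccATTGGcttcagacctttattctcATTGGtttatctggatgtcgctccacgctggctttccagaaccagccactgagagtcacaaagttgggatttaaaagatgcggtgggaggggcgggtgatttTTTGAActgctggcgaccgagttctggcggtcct
Ube2c: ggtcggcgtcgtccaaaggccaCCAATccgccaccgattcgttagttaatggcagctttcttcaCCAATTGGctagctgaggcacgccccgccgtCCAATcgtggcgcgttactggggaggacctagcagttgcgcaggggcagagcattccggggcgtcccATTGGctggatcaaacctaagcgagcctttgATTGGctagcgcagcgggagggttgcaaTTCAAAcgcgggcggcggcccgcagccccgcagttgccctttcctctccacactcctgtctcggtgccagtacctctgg
Mcm2: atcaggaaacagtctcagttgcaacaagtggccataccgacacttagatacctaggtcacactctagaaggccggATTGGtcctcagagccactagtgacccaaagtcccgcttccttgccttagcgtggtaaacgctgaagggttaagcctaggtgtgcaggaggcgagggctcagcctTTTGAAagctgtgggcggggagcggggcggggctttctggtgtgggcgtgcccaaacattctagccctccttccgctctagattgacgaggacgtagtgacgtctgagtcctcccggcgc
Rrm2: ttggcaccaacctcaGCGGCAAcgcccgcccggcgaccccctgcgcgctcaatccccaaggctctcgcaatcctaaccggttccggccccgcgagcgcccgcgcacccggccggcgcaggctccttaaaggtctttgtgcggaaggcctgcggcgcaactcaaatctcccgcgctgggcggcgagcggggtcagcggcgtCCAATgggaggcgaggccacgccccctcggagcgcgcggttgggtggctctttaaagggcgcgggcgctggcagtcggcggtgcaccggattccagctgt

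In Ccnb2 the capitals mark 3 CCAAT boxes, starting 87, 54 and 21 bases before the start site, and 2 CHR matches, starting 167 bases before and 4 bases after it. Aurka held CCAAT boxes 51 and 19 bases before the start and a CHR 32 bases after it. Cenpa held a pair of CCAAT boxes on the other strand (ATTGG), 109 and 86 bases before the start, and a CHR 16 bases after it. Ube2c held 6 CCAAT boxes, of which a pair overlaps in CCAATTGG, and a CHR on the other strand (TTCAAA) starting 29 bases before the start. Mcm2 held a single CHR 70 bases before the start and a single CCAAT box on the other strand. Rrm2 held a CCAAT box 50 bases before the start and an E2F match on the other strand (GCGGCAA) starting 235 bases before it.

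A CHR together with a CCAAT box was found in 12 of 16 mitotic promoters (75%) and in 2 of 15 replication promoters (13.3%), against 6.64% of the 10475 tested genes with a listed promoter and 8.61% of all 27025 genes with one. E2F letters were found in 8 of 15 replication promoters (53.3%) and in 3 of 16 mitotic promoters (18.8%), against 18.4% of the tested genes and 10.9% of all genes. The split of letters did not follow the split of responses. Of the 12 mitotic genes with CHR and CCAAT, Ccnb2, Aurka, Cenpa and Ube2c fell in both genotypes and Kif11 in KO mice, while Cdk1, Plk1, Bub1b, Top2a and Mki67 were not called and Bub1 and Cdc20 held too few reads to test. Birc5 and Nusap1, which fell, held none of the letters searched, and neither did Tk1 and E2f1. A match is a description of these 300 bases, not a site shown to be bound.

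KO against WT livers asked whether loss of Ehhadh altered these genes under either treatment, and no gene passed the test. Under saline, 0 of the 33 genes were called by edgeR's quasi-likelihood test, DESeq2 or limma-voom, and 1 had an unadjusted p under 0.05, where 0.0141% of all genes tested were called and 1.86% had such a p. That gene was Ccne1, at 0.607 ± 0.132 CPM in KO mice on saline and 0.346 ± 0.117 CPM in WT mice on saline (log2 fold change 0.78, SE 0.358, unadjusted p = 0.039, adjusted p = 1.0). The replication genes otherwise ran down to -0.65 (SE 0.411) for Cdkn1a, and the mitotic genes from -0.34 (SE 0.312) for Plk1 to 0.41 (SE 0.395) for Ube2c. The median was -0.01 for replication genes and 0.14 for mitotic genes.

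Under L-AC the 33 genes gave 0 calls by the same 3 tools and 0 with an unadjusted p under 0.05, where 0.0141% of all genes tested were called and 4.53% had such a p. Log2 fold changes of KO over WT ran from -0.40 (SE 0.416, Cdkn1a) to 0.26 (SE 0.148, Ccne2) among replication genes and from -0.19 (SE 0.331, Plk1) to 0.36 (SE 0.499, Ube2c) among mitotic genes. The median was -0.07 for replication genes and -0.02 for mitotic genes. No pair of KO and WT groups stood apart for any of the 33 genes under saline or under L-AC, where 0.141% of all genes did so under saline and 0.451% under L-AC.

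The response to L-AC was then compared between genotypes by the interaction of genotype and treatment, the log2 fold change in KO mice minus that in WT mice. By edgeR, DESeq2 and limma-voom 0 of 33 genes were called, and 0 had an unadjusted p under 0.05, where 0.0% of all genes tested were called and 2.25% had such a p. Tk1 came nearest, with a difference of -0.60 (SE 0.313, unadjusted p = 0.0671), followed by Ccne1 with -0.88 (SE 0.499, unadjusted p = 0.0907). So the genes called in a single genotype were not shown to differ between genotypes. For Top2a the difference was -0.38 with a standard error of 0.561, and a p that misses the threshold does not show that the responses were alike.

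Age differed within groups, from 28 to 45 weeks over all mice. It also differed between the KO groups, with 28 to 38 weeks on L-AC against 31 to 44 weeks on saline. Age was therefore partly confounded with L-AC in KO mice. It was fitted as a covariate to see whether these genes followed it. By edgeR, DESeq2 and limma-voom 0 of 33 genes were called for age, where 0.0211% of all genes tested were called. At an unadjusted p under 0.05, as for 8.18% of all genes, there were 2, Mcm2 (-0.04 per week on the log2 scale, unadjusted p = 0.0029) and Mcm3. With age in the fit, Mcm2 still rose under L-AC, with log2 fold changes of 1.23 in KO mice and 1.47 in WT mice.

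**Figure D4:**
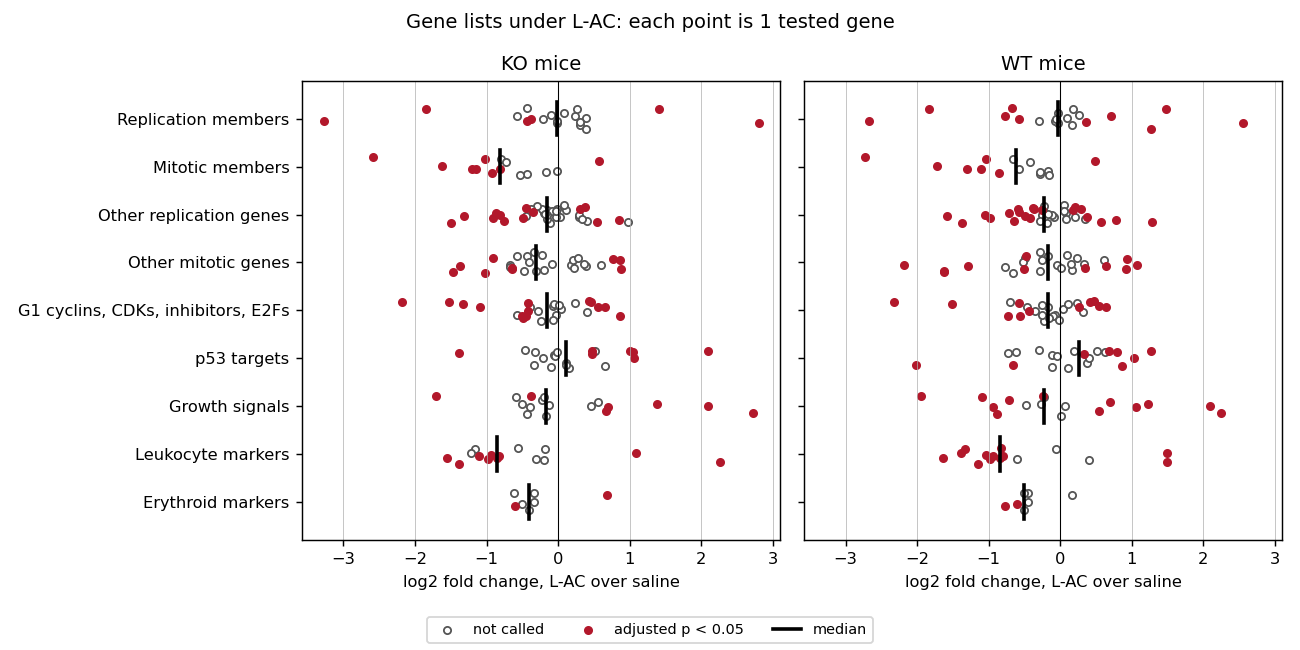
Log2 fold change of L-AC over saline for every tested gene of 9 lists, KO mice on the left and WT mice on the right; filled points have an adjusted p under 0.05 and black bars are list medians. The mitotic genes and the leukocyte markers have medians between -0.85 and -0.62 in both panels. The replication genes have medians near 0, with single genes from -3.27 to 2.81 in KO mice.

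Wider lists of cycle genes gave the setting. Over all genes tested, 48.8% were called in KO mice and 53.3% in WT mice. The share was 37.1% in KO mice and 57.1% in WT mice for other replication genes. For other mitotic genes it was 33.3% in KO mice and 40.7% in WT mice. Of 35 other replication genes tested, 4 were called higher and 9 lower in KO mice, and 7 higher and 13 lower in WT mice, with medians of -0.15 in KO mice and -0.22 in WT mice. Dut, which clears dUTP, Pold2, a subunit of DNA polymerase delta, and Mcm10, which helps start the fork, fell in both genotypes. Their log2 fold changes were -0.81 (Dut), -0.91 (Pold2) and -1.32 (Mcm10) in KO mice and -1.05 (Dut), -0.98 (Pold2) and -1.58 (Mcm10) in WT mice. Orc5, a subunit of the origin recognition complex, rose (0.55 in KO mice and 0.57 in WT mice). Gins4 rose in KO mice (0.37) and had a log2 fold change of 0.20 in WT mice.

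Of 27 other mitotic genes tested, 3 were called higher and 6 lower in KO mice, and 5 higher and 6 lower in WT mice. Their medians were -0.31 in KO mice and -0.17 in WT mice, and a difference from the 14 genes was not tested. In WT mice this median lay no lower than that of the other replication genes (-0.22), unlike in the 2 classes above. Cks2, a small partner of Cdk1, fell by 1.38 in KO mice (SE 0.174) and fell by 1.29 in WT mice (SE 0.154), and Spc24, of the Ndc80 kinetochore complex, fell by 1.47 in KO mice (SE 0.267) and fell by 1.62 in WT mice (SE 0.237). Nek2, a centrosome kinase, rose instead (0.76 in KO mice and 0.93 in WT mice). Other G1 cyclins, kinases, inhibitors and E2F factors gave 5 higher and 9 lower of 26 in KO mice (53.85% called). In WT mice they gave 5 higher and 6 lower (42.31% called). E2f2, a close relative of E2f1, averaged 0.157 CPM in KO mice on L-AC, against 0.744 CPM in KO mice on saline, and 0.161 CPM in WT mice on L-AC, against 0.809 CPM in WT mice on saline. E2f2 fell by 2.18 in KO mice (SE 0.376) and fell by 2.33 in WT mice (SE 0.32). The inhibitor genes Cdkn1b (p27) and Cdkn2d (p19) fell, against the direction of Cdkn1a. The log2 fold change of Cdkn1b was -0.43 in KO mice and -0.58 in WT mice, and that of Cdkn2d -1.33 in KO mice and -1.51 in WT mice. Cdk4, the partner of cyclin D, rose (0.65 in KO mice and 0.64 in WT mice).

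Because Cdkn1a is a well-known target of p53, 20 other p53 targets were counted. In KO mice 6 were called higher, 1 lower and 13 not called. In WT mice 6 were called higher, 2 lower and 12 not called. The share called was below that of all genes tested, 48.8% in KO mice and 53.3% in WT mice. Of all genes tested, 25.2% were called higher in KO mice and 26.6% in WT mice. The median log2 fold change of the p53 targets was 0.11 in KO mice and 0.26 in WT mice. Whether p53 was active was not tested. Sesn2, a stress-response gene, rose by 1.07 in KO mice (SE 0.149) and rose by 1.03 in WT mice (SE 0.129), and Aen, a nuclease gene, rose by 1.05 in KO mice and 0.80 in WT mice. Btg2, an antiproliferative gene, rose by 2.10 in KO mice and had a log2 fold change of 1.27 in WT mice. Gadd45a, in contrast, fell in WT mice (-2.01, SE 0.597, adjusted p = 0.00708) and was not called in KO mice (-0.34, SE 0.64). It shares 19.4% of its exon bases with E230016M11Rik on the opposite strand, which gave -0.80 in KO mice (not called) and fell in WT mice (-1.96, adjusted p = 0.0027), and the part of those reads in the Gadd45a count was not tested. Among 17 growth signals tested, 5 were called higher and 2 lower in KO mice, and 6 higher and 6 lower in WT mice. The share called was 41.2% in KO mice and 70.6% in WT mice. Myc, a transcription factor of cell growth, averaged 35.3 CPM in KO mice on L-AC, against 5.41 CPM in KO mice on saline, and 30.0 CPM in WT mice on L-AC, against 6.32 CPM in WT mice on saline. Myc rose by 2.73 in KO mice (SE 0.445) and rose by 2.25 in WT mice (SE 0.375), while the immediate early gene Fos fell by 1.71 in KO mice (SE 0.458) and fell by 1.95 in WT mice (SE 0.407). The tests for these lists are those of edgeR over all genes, and no list was tested as a whole.

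Markers of other cell types were counted as well, where 48.8% of all genes tested were called in KO mice and 53.3% in WT mice. In KO mice, 1 erythroid gene of 7 tested was called higher and 1 lower, and in WT mice 0 higher and 2 lower. Endothelial genes gave 1 higher and 2 lower of 8 in KO mice and 0 higher and 1 lower in WT mice, stellate cell genes 1 higher and 1 lower of 10 in KO mice and 3 higher and 1 lower in WT mice, and cholangiocyte genes 0 higher and 1 lower of 7 in each genotype. Of the 10 hepatocyte markers, 0 were called higher and 6 lower in KO mice, and 2 higher and 5 lower in WT mice. Median log2 fold changes in KO mice were -0.53 (hepatocyte), -0.41 (erythroid), -0.06 (endothelial), -0.08 (stellate) and -0.28 (cholangiocyte). In WT mice they were -0.305 (hepatocyte), -0.50 (erythroid), 0.11 (endothelial), 0.08 (stellate) and 0.08 (cholangiocyte).

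Reads that 2 genes share limit a few of these values. By the exon coordinates in the count tables, 8 of the 40 genes share exon bases with another gene, 4 of them over more than 10% of their length (Ccne2, Kif20a, Ccna2 and Gins2). Of the 12 genes called the same way in both genotypes, 8 share none, among them Mcm2, E2f1, Cdkn1a, Birc5 and Aurka.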

How the data were processed

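What was deposited are raw counts per gene, without normalization, for each library. The authors counted them with featureCounts 1.4.4 over exons grouped by gene in the UCSC mm10 models, per the file headers, with strand ignored, primary alignments kept and a read counted for every gene it overlapped. Reads had been aligned with STAR 2.4.0, per the submitters' processing notes. Reads shared by overlapping genes cannot be assigned to either from such counts.

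Groups were taken from the labels, and replicates were numbered in accession order. No batch, date or cage is given there. Of the 56 pairs of replicates none agreed within sampling noise (lowest chi-square per degree of freedom 48.34).

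Genes were kept by filterByExpr (minimum count 10, minimum total 15), which left 14196 of 24062 genes. Counts were scaled by TMM and fitted over all 23 libraries with 1 mean per group. Tests were quasi-likelihood tests (edgeR 4.0.16, R 4.3.3) with Benjamini-Hochberg adjustment over all genes tested and two-sided p-values. SE stands for standard error. CPM used the TMM-scaled library size, and CPM per kb the exon length in the deposited files. The settings varied were the tool (DESeq2 1.42.0, or limma-voom of limma 3.58.1), the scaling (DESeq2 size factors), the filter (none, or 1 CPM in 5 libraries), the threshold (adjusted p under 0.01), age in weeks added to the fit, fits of 2 groups alone, and each library left out in turn. The fit was run on simulated data first, with changes put only into genes with a mean above 1 CPM. Recovery of changes in lower genes, among them most of the mitotic genes, was not tested.

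The 40 genes, the other gene lists and the markers (hepatocyte, leukocyte, erythroid, endothelial, stellate and cholangiocyte) were chosen with earlier results of these data known. From the other replication, mitosis, G1 control, p53 and growth lists, up to 6 called genes with the smallest p in each comparison of L-AC with saline could be named, and up to 3 in each other comparison. A gene that this rule picks is not reported here. Up to 3 markers per cell type with the highest CPM could be named. The leukocyte genes Adgre1 and Ly6g were not analysed here. Promoter sequences are those of RefSeq on GRCm38.p6.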

Additional observations from a re-analysis of the deposited data

Results flagged for a closer look

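Within a group, a library was singled out where its gap to the nearest other library passed Dixon's 95% limit. Among 132 checks of 33 genes in 4 groups, 12 passed (9.09%), where chance passes about 1 in 20. KO saline replicate 1 was low for Mcm3 (2.43 CPM, the others 3.24 to 3.56 CPM) and high for Rrm2 (3.15 CPM, the others 2.27 to 2.52 CPM) and Ccnb2 (1.54 CPM, the others 0.503 to 0.701 CPM). KO L-AC replicate 5 was low for Tyms (2.35 CPM, the others 3.94 to 4.54 CPM) and high for Ccna2 (6.33 CPM, the others 4.54 to 5.02 CPM). WT L-AC replicate 3, the L-AC library nearest to saline on the first principal component, was high for E2f1 (1.78 CPM, the others 0.360 to 0.859 CPM) and Cdk1 (0.687 CPM, the others 0.278 to 0.335 CPM). Tk1 was high in KO saline replicate 4 (37.6 CPM, the others 20.3 to 23.3 CPM), Ccne2 in WT saline replicate 6 (4.27 CPM, the others 3.31 to 3.66 CPM) and Birc5 in WT saline replicate 5 (1.39 CPM, the others 0.860 to 1.08 CPM). Mki67 was high in KO L-AC replicate 4 (0.572 CPM, the others 0.227 to 0.278 CPM) and in WT saline replicate 7 (1.04 CPM, the others 0.173 to 0.440 CPM). No gene's response to L-AC differed between the genotypes by the interaction test.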

How the results depend on the processing

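Under L-AC the number of genes called ran from 10 to 14 in KO mice and from 12 to 18 in WT mice over the other tools, filters, thresholds and covariates tried, and from 11 to 14 in KO mice and 15 to 18 in WT mice with each library left out. These settings did not all test the same genes. The filter of 1 CPM in 5 libraries kept 22 of the 33, and none of the 22 gained or lost a call under L-AC. Fits of 2 groups alone also tested fewer than 33. The number called was 0 throughout for KO against WT, the interaction and age. No called gene changed direction in any of these fits. In KO mice, Ccne2 and Kif11 were not called once age entered the fit (adjusted p = 0.106 for Ccne2 and 0.102 for Kif11) or when KO libraries alone were fitted (0.118 for Ccne2 and 0.0764 for Kif11), and Tyms was not called from KO libraries alone (0.0559). Without a filter on low counts, Ccne2 (0.0632) and Ube2c (0.0628) were not called in KO mice, and limma-voom did not call Ube2c in either genotype. In WT mice, limma-voom did not call Rrm1 (0.0523), and a fit of WT libraries alone did not call Ube2c (0.0734).

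With the filter of 1 CPM in 5 libraries, which removes low mitotic genes, the mitotic median log2 fold change was -0.93 for L-AC in KO mice, -0.86 for L-AC in WT mice, -0.10 for KO against WT under saline, and 0.0931 for the interaction. With each library left out, the mitotic median ran from -0.90 to -0.65 for L-AC in KO mice, from -0.71 to -0.45 for L-AC in WT mice, from -0.0672 to 0.0655 for KO against WT under L-AC and from -0.0098 to 0.183 under saline. The replication median ran from -0.15 to 0.0798 for L-AC in KO mice, from -0.0369 to 0.0619 for L-AC in WT mice and from -0.13 to 0.0264 for KO against WT under L-AC. The cause of these shifts was not tested beyond the removal of genes or libraries. Depth limits the mitotic genes most: 6 of the 20 held too few reads to test, as did 1 of the 20 replication genes, and no fold change is given for these 7.

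No paired analysis was possible because the labels carry no replicate numbers, and mice were numbered in accession order within each group.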
